A study of Rattus norvegicus with 17 samples.

Results

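Pnoc, Npy and Cpe are 3 genes of neuropeptide signalling, each read by 1 probe set (1368369_at, 1387154_at and 1386921_at) of the 31099 probe sets on the array. They were taken as every probe set that the platform annotates to 1 of these genes alone, and the genes were selected on their measured signals in these same arrays with and without insulin-like 3 (Insl3), the fetal Leydig cell hormone that drives growth of the gubernaculum. Their differences between the groups are therefore given as a description, with standard errors and no test. The gubernaculum is the fetal ligament that anchors the testis. Pairs of gubernaculum bulbs from male Long Evans rat fetuses at gestational day 17 were cultured for 24 h in medium with charcoal-stripped serum and an insulin, transferrin and selenium supplement but no Insl3, then for 24 h more without Insl3 (control, 6 arrays), with 10 nM Insl3 (3 arrays) or with 100 nM Insl3 (6 arrays). Each array holds the RNA of 1 pair of bulbs, and the labels call the replicates biological. They give an RNA integrity number, a score of RNA quality, of 10 for every array except 10 nM replicates 1 and 2, which have none. A further 2 arrays at 10 nM, replicates 4 and 5, were set aside by the submitters after a principal component analysis and for their low yield of labelled cRNA, and enter no group here. Signals are log2 values made with GCRMA, whose precision is limited by how many arrays there are. The array medians lay between 4.29 and 4.47, and r between any pair of the 15 arrays was 0.978 to 0.996.

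Neuropeptides are cut out of longer precursors inside secretory granules. Prohormone convertases cleave after pairs of basic residues, carboxypeptidase E, the product of Cpe, then trims the basic residues left at the end, and peptidylglycine alpha-amidating monooxygenase (Pam) amidates peptides such as neuropeptide Y. Pnoc encodes the precursor of nociceptin, which acts on the opioid-related receptor encoded by Oprl1, and Npy encodes the precursor of neuropeptide Y, a transmitter of sympathetic neurons that acts on receptors such as those of Npy1r and Npy5r. Nociceptin and neuropeptide Y receptors couple to inhibitory G proteins, which lower cyclic AMP.

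The 300 bases around the start of a gene, 250 before it and 50 from it on, were available from RefSeq on GRCr8 for 2 of the 3 genes (Npy and Cpe, not Pnoc). They are shown because both signals differed between the groups in opposite directions, and capitals mark a match to 1 of 4 searched motifs. These were the full cyclic AMP response element (TGACGTCA), its core (TGACG, which lies inside the full element), the monomer element of the Nr4a receptors (AAAGGTCA) and the TATA box (TATAAA), each on both strands. The windows are chr4:80211861-80212160 for Npy and chr16:29796457-29796756 for Cpe, both on the plus strand, 5′ to 3′.
Npy: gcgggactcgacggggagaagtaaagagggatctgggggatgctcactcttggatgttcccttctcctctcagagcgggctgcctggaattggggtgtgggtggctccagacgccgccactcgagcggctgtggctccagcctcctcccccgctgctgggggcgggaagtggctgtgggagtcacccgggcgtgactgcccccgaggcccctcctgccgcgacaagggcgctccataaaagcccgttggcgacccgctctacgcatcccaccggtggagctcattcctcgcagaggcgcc
Cpe: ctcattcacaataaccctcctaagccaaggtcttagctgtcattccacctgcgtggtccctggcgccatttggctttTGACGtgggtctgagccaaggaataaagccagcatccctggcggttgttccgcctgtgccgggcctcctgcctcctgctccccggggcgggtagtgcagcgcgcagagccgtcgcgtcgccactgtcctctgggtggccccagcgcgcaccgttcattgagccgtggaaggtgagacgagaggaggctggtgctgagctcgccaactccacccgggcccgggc
Cpe held the core once, with its first base at -173 counted from the gene start. The Npy window held none of the 4 motifs as spelled. Of 33469 such windows in the genome, 21.2% held the core, 1.83% the full element, 1.43% the Nr4a element and 14.2% the TATA box. A match is a run of letters and not a bound site.

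Pnoc had the highest difference from control of all 10665 genes at 10 nM and the third highest at 100 nM. Its signal in the 6 control arrays, replicates 1 to 6, was 8.40, 6.99, 7.19, 6.61, 7.16 and 9.84. With 10 nM it was 13.32, 13.48 and 13.05, and with 100 nM it was 13.29, 13.54, 13.24, 13.49, 13.20 and 13.93. Every kept array with Insl3 lay above every control array, with a gap of 3.21 log2 units at 10 nM and 3.36 at 100 nM, while the arrays of both doses overlapped. Across genes, the groups were fully separated upwards for 10.2% of genes at 10 nM and 4.51% at 100 nM. At 100 nM Pnoc averaged 13.45 ± 0.27, against 7.70 ± 1.21 in controls (SD, n = 6 each), a difference of 5.75 ± 0.43 (SE of the fit). At 10 nM it averaged 13.28 ± 0.22 (SD, n = 3), a difference of 5.59 ± 0.53 from the same controls. The 100 nM mean exceeded the 10 nM mean by 0.16 ± 0.53, less than the SD of either group, and by 0.05 without 10 nM replicate 3, 0.07 without 100 nM replicate 6 and 0.26 without 10 nM replicate 2.

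Cpe was also higher with Insl3 at both doses, by a smaller step from a high starting signal. The controls read 11.29, 11.40, 11.13, 11.37, 11.23 and 10.97, the 10 nM arrays 12.96, 12.93 and 12.91, and the 100 nM arrays 12.70, 13.07, 13.33, 13.31, 13.44 and 13.47. All 9 kept arrays with Insl3 lay above all 6 controls, and the gap was 1.51 log2 units at 10 nM and 1.30 at 100 nM. Its mean was 13.22 ± 0.29 at 100 nM against 11.23 ± 0.16 in controls (SD, n = 6 each), a difference of 1.99 ± 0.12 (SE), or 3.97-fold. At 10 nM the mean was 12.93 ± 0.03 (SD, n = 3), a difference of 1.70 ± 0.15 from control, or 3.25-fold. Cpe at 100 nM exceeded Cpe at 10 nM by 0.29 ± 0.15. The 3 arrays at 10 nM lay inside the 100 nM range, between its replicates 1 and 2, so the order of the doses was within their spread.

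Npy had lower means with Insl3, in the order of dose. It read 8.87, 8.31, 8.35, 8.37, 8.38 and 8.97 in controls, 7.43, 7.94 and 8.33 at 10 nM, and 7.64, 6.08, 7.52, 4.96, 5.90 and 6.56 at 100 nM. At 100 nM every array lay below every control, by a gap of 0.67. Such full separation downwards was found for 1.36% of genes at 100 nM and for 4.67% at 10 nM. At 10 nM the highest array, replicate 3, lay 0.01 above the lowest control, so those groups overlapped, and they overlapped with 100 nM as well. Npy averaged 6.44 ± 1.02 at 100 nM against 8.54 ± 0.30 in controls (SD, n = 6 each), a difference of -2.10 ± 0.38 (SE), or 4.28-fold lower. The 10 nM mean was 7.90 ± 0.45 (SD, n = 3), -0.64 ± 0.47 from control and 1.56-fold lower. That difference ranged from -0.86 to -0.41 when single arrays were left out, with -0.41 without 10 nM replicate 1. From 10 to 100 nM the difference was -1.46 ± 0.47. The plot of signals by array shows like signals at both doses for Pnoc and Cpe, and the lowest mean at 100 nM for Npy. In a bulk culture, fewer cells of a type and less RNA per cell cannot be told apart.

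**Figure D1:**
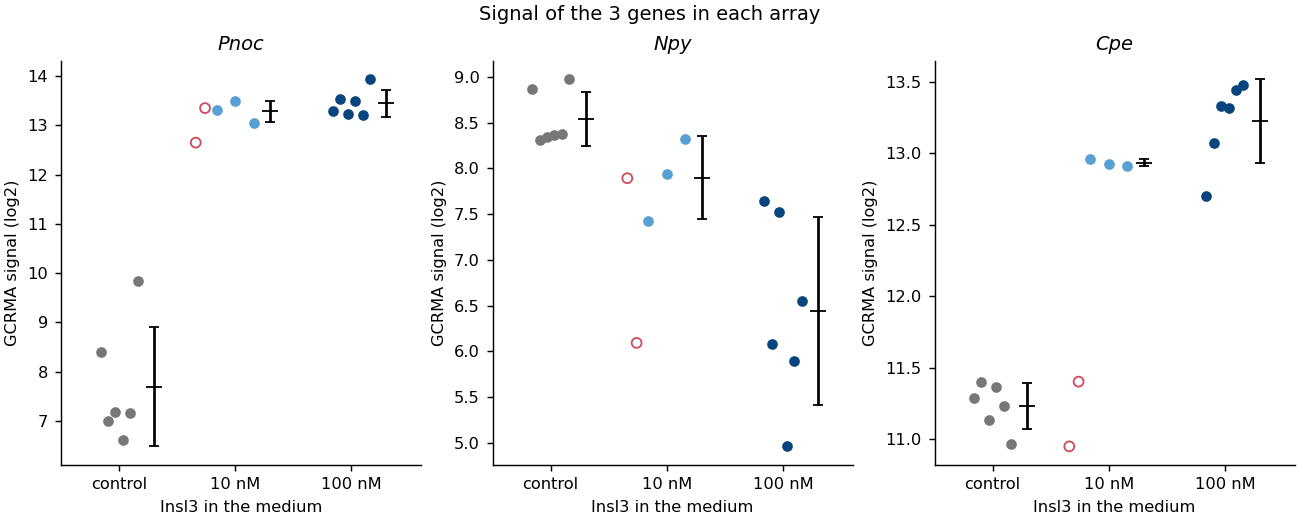
GCRMA signal (log2) of Pnoc, Npy and Cpe in every array, by Insl3 in the medium. Filled points are single arrays in replicate order, open red circles are 10 nM replicates 4 and 5, which the submitters set aside, and black bars are mean ± SD over the filled points (n = 6, 3 and 6). Among the filled points, Pnoc and Cpe lay above every control at both doses, and Npy lay below every control at 100 nM, while the open circles of Cpe lie at the level of the controls.

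**Figure D2:**
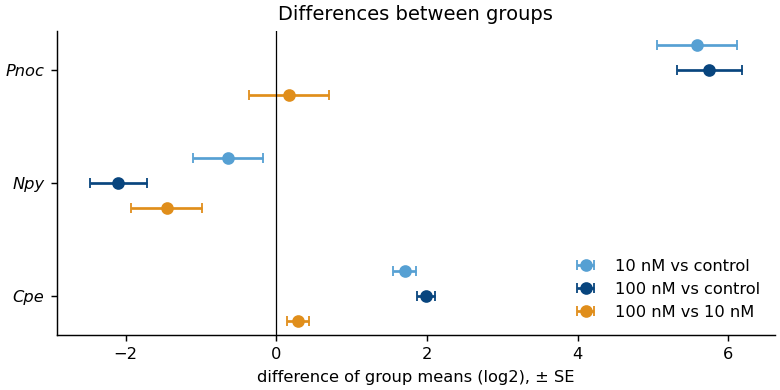
Differences of group means (log2, ± SE of the fit over 15 arrays) for the 3 genes in the 3 comparisons. Pnoc and Cpe lie to the right of 0 against control at both doses, Npy lies to the left, and Npy has the widest step between 10 and 100 nM.

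Inside the groups, the leading principal component (27.3% of the variance left) put replicates 1, 2 and 6 on one side and 3, 4 and 5 on the other, a division that no label names and that was made after seeing the data. Within replicates 1, 2 and 6 alone the 100 nM difference was 5.17 ± 0.66 for Pnoc, 1.86 ± 0.21 for Cpe and -1.96 ± 0.42 for Npy (SE). Within replicates 3, 4 and 5 it was 6.33 ± 0.19 for Pnoc, 2.12 ± 0.08 for Cpe and -2.24 ± 0.65 for Npy. At 10 nM, replicates 1, 2 and 6 gave 4.99 ± 0.74 for Pnoc, 1.72 ± 0.23 for Cpe and -1.03 ± 0.47 for Npy. Replicates 3, 4 and 5 hold a single 10 nM array. At 100 nM the sign of the difference from control was the same in both sets for all 3 genes. That was fixed in advance, because the 100 nM and control arrays did not overlap for any of them.

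The set-aside arrays read differently for the 3 genes. Pnoc was 12.65 and 13.35 in 10 nM replicates 4 and 5, against 9.84 in the highest control. Cpe was 10.95 and 11.40 there, against 10.97 to 11.40 in controls and 12.91 to 12.96 in the kept 10 nM arrays. Npy was 7.89 and 6.09, both below the lowest control at 8.31. The cRNA yields of these arrays were 25.66 and 33.68 µg, against 48.6 to 64.16 µg for the kept 10 nM arrays and 50.3 to 102.69 µg for controls. The part of the low yield in these readings was not tested.

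The spread between arrays was wide for Pnoc without hormone and for Npy at 100 nM. The genes were chosen on signals of these same arrays, and whether the spread entered that choice is not known. The SD of Pnoc in controls (1.21) exceeded that of 99.4% of the 4530 tested probe sets whose control mean lay within 1 log2 unit of it, where the median SD was 0.23. It rests mostly on control replicates 6 and 1: without replicate 6 the SD was 0.67, above 96.9% of 4179 probe sets of like signal. With 100 nM the SD of Pnoc was 0.27, above 93.9% of 707 probe sets of like signal, and 0.15 without replicate 6. For Npy the order was the other way round, with an SD of 1.02 at 100 nM (above 98.2% of 3392 probe sets of like signal) and 0.30 in controls (above 76.0% of 5046). Leaving out single arrays gave an Npy SD of 0.81 to 1.14 at 100 nM. The SD of Cpe was 0.29 at 100 nM, above 95.4% of 834 and 0.16 without replicate 1, and in controls it was 0.16, above 48.6% of 2942 and 0.11 without replicate 6.

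In the controls Pnoc and Npy were high in the same arrays, replicates 1 and 6. Over the 6 controls Pearson's r between them was 0.94 (exact permutation p = 0.0181, 2-sided, adjusted p = 0.108) and Spearman's rho was 0.71 (exact permutation p = 0.136, adjusted p = 0.408). Without replicates 1 and 6 r was -0.12, so the relation rests on those 2 arrays. Their cRNA yields were 102.69 and 58.05 µg, against 50.3 to 73.09 µg in the other controls. On the leading principal component inside the groups, replicates 1 and 6 were the highest controls, at 26.0 and 29.6. Replicate 2 lay at 16.6, and replicates 3, 4 and 5 at -21.4, -29.3 and -21.5. The permutation takes the 6 controls as exchangeable, and the part of this division in the relation was not tested. Cpe ran the other way in controls, with r = -0.76 against Pnoc (exact permutation p = 0.0681, adjusted p = 0.204; rho = -0.77, exact permutation p = 0.103, adjusted p = 0.408) and -0.70 without the same arrays. Leaving out 1 array moved that r to as little as -0.22. Cpe and Npy gave r = -0.58 in controls (exact permutation p = 0.203, adjusted p = 0.406; rho = -0.60, exact permutation p = 0.242, adjusted p = 0.483), and -0.34 without the same arrays.

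At 100 nM, Pnoc and Npy gave r = -0.23 (exact permutation p = 0.668, adjusted p = 0.668) and rho = -0.03 (exact permutation p = 1, adjusted p = 1). Without replicates 5 and 6 that r was -0.86. Pnoc and Cpe gave r = 0.30 (exact permutation p = 0.547, adjusted p = 0.657; rho = 0.03, exact permutation p = 1, adjusted p = 1), and 0.18 without the same arrays. Npy and Cpe gave r = -0.46 (exact permutation p = 0.360, adjusted p = 0.540; rho = -0.26, exact permutation p = 0.658, adjusted p = 0.988), and 0.13 without replicates 1 and 4. None of the 6 relations passed after Benjamini-Hochberg adjustment. Between control and 100 nM the correlations were not compared by a test, and the 10 nM group has too few arrays for one. The smallest exact p that 6 arrays allow is 0.00139.

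**Figure D3:**
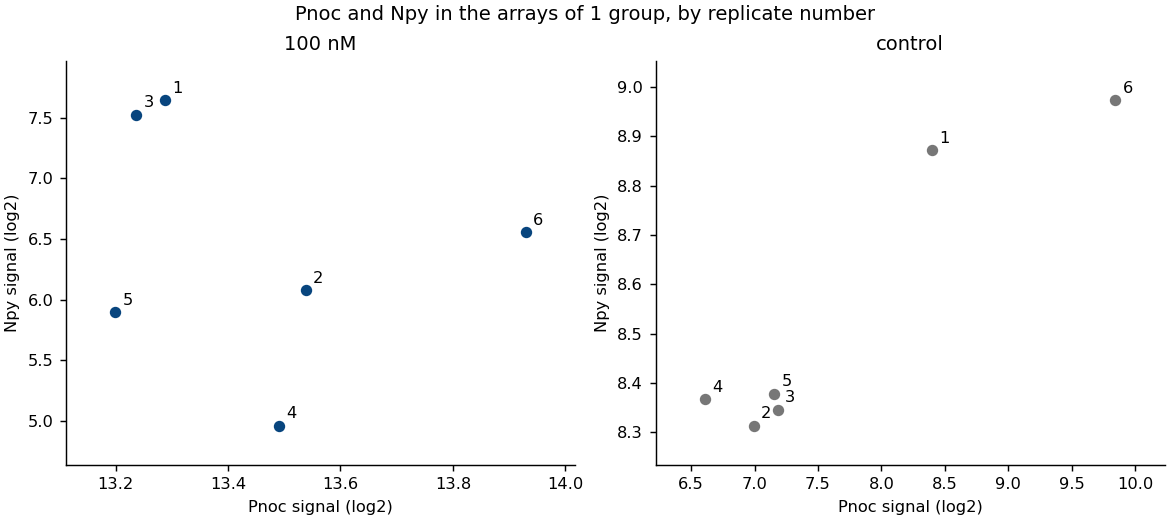
Npy signal against Pnoc signal (both log2) in the 6 arrays at 100 nM and the 6 control arrays, each point labelled with its replicate number and each panel with axis ranges of its own. Control replicates 1 and 6 were high for both genes, and the other 4 controls lie together at the lower left.

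For the rest of the neuropeptide system, 111 genes of peptide processing, storage, reception, other precursors and breakdown were listed. Of these 13 had no probe set with a gene name in the table used here, 49 did not pass the filter on low signals (above 2.28 in at least 3 of 15 arrays) and 49 were tested. At 100 nM 9 rose, 1 fell and 39 did not pass (limma, adjusted p below 0.05). That is 20.4% of those tested, against 12.1% of all genes (8.15% rose and 3.98% fell). Of the 9, Pcsk2 passed the filter only through arrays with Insl3, so its direction was fixed in advance. At 10 nM 5 rose, 2 fell and 42 did not pass, 14.3% of those tested against 8.67% of all genes, of which 5.54% rose and 3.13% fell. The median difference of the 49 genes was 0.14 at 100 nM and 0.23 at 10 nM. For all tested probe sets, some of them several to a gene or without a gene name, it was -0.0003 and 0.03. Both comparisons share the same controls. At 100 nM 3 were called within replicates 1, 2 and 6 alone (6.12% against 1.06% of all probe sets) and 5 within replicates 3, 4 and 5 alone (10.2% against 8.93%). With the replicate number as a block 5 were called at 100 nM, all higher, or 10.2% against 9.40% of all probe sets. The block ended the 100 nM calls of Pcsk2, Mbtps1, Pam, Tac3 and Ide. With the set-aside arrays counted as 10 nM, 2 of the 10 calls at 100 nM were kept, those of Mme and Ptprn, which is 4.08% of the listed genes against 5.32% of all probe sets. Among the 47 listed genes that exceeded 2.28 in any control, a restriction added after seeing the data, 8 rose and 1 fell at 100 nM (19.1%). The share of all genes under that restriction was not computed, so this count has no background beside it.

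Receptors of these peptides were mostly at background. Oprl1, the nociceptin receptor gene, and the opioid receptor genes Oprm1 and Oprd1 read 2.11, the lowest value of the array scale, in all 15 arrays. The kappa opioid receptor gene Oprk1 was measured, at 5.06 ± 0.23 with 100 nM and 5.52 ± 0.44 in controls (SD, n = 6 each; adjusted p = 0.116, limma). Npy1r, which encodes the Y1 receptor, read 8.42 ± 0.33 at 100 nM against 8.17 ± 0.17 in controls (adjusted p = 0.272, limma). Npy5r was weak, at 2.69 ± 0.15 and 2.47 ± 0.13 (adjusted p = 0.151, limma), and Npy2r and Npy4r read 2.11 in all 15 arrays. No receptor gene was called at either dose by limma, while 1 opioid receptor gene, Oprk1, and 1 neuropeptide Y receptor gene, Npy5r, had an unadjusted p below 0.05 at 100 nM.

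Of 15 tested processing enzyme genes 4 rose at 100 nM (Pcsk2, Cpm, Pam and Mbtps1) and none fell, with 11 not called, or 3 of 14 without Pcsk2. At that dose 8.15% of all genes rose and 3.98% fell. At 10 nM Cpm and Pam rose, Cpd fell and 12 were not called, where 5.54% of all genes rose and 3.13% fell. Pcsk2, which encodes prohormone convertase 2, did not exceed 2.28 in any of the 6 controls and read 2.18 to 5.19 at 100 nM with a median of 3.55, above 2.28 in 5 of 6 arrays. Its 100 nM mean of 3.61 was at least 2.50-fold higher than controls (adjusted p = 0.0419, limma), but it passed the filter on low signals only through the arrays with Insl3, and leaving out single arrays ended the call 12 times of 15, with adjusted p reaching 0.0817. At 10 nM Pcsk2 read 4.28, 3.18 and 2.92, all above 2.28, and was not called (adjusted p = 0.137, limma).

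Cpm, a membrane carboxypeptidase that cuts off basic residues outside the cell, read 6.07 to 7.46 at 100 nM with a median of 6.57, against 4.38 to 6.04 in controls with a median of 5.55. The groups did not overlap, as for 4.51% of all genes upwards at 100 nM. The difference was 1.19 ± 0.28 (SE, adjusted p = 0.0146, limma), with 1.39 ± 0.34 at 10 nM (adjusted p = 0.0166). Leaving out either replicate 2 or replicate 3 at 10 nM ended the 10 nM call, with adjusted p reaching 0.0947. Pam, the amidating enzyme gene, rose by 0.36 ± 0.10 at 100 nM (adjusted p = 0.0382, limma) and 0.51 ± 0.12 at 10 nM (adjusted p = 0.0167). Leaving out single arrays ended the Pam call 10 times of 15 at 100 nM (adjusted p reaching 0.0815) and, at 10 nM, for each of the 3 arrays of that dose (adjusted p reaching 0.0839). Mbtps1, the site-1 protease gene, rose by 0.29 ± 0.08 (adjusted p = 0.0353, limma), and 8 of 15 single-array omissions ended that call, with adjusted p reaching 0.0796.

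Cpd, which encodes a trimming enzyme of the same family as Cpe, differed from Cpe in its dose pattern. It read 9.94, 10.03 and 9.59 at 10 nM, against 10.22 to 10.59 in controls, and fell by 0.61 ± 0.15 (SE; adjusted p = 0.0184, limma). At 100 nM it read 10.11 to 10.79 and averaged 0.08 ± 0.12 above control (adjusted p = 0.713). The 100 nM mean exceeded the 10 nM mean by 0.70 ± 0.15 (SE; adjusted p = 0.0410, limma). It was the single call among the 49 genes between the doses, and 3 of the 49 had an unadjusted p below 0.05. Among all genes 0.778% were called between the doses (0.628% higher, 0.15% lower). For that comparison 11 of 15 single-array omissions ended the call, with adjusted p reaching 0.289, and omitting replicate 3 at 10 nM ended the 10 nM call (adjusted p = 0.127). Cpz, another relative of Cpe, was weak and not called (3.12 ± 0.44 at 100 nM, 2.93 ± 0.36 in controls). The convertase helper gene Scg5 and the convertase inhibitor gene Pcsk1n were not called at 100 nM, with differences of 0.34 ± 0.33 and 0.48 ± 0.20 (adjusted p = 0.555 and 0.144, limma).

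Of 10 listed granule genes 4 were tested, and Ptprn alone of these was called, where 12.1% of all genes were called at 100 nM and 8.67% at 10 nM. The granin genes Chga, Chgb and Scg2, which encode the bulk proteins of dense-core granules, and the granin-like gene Vgf read below 2.28 in all 15 arrays. Ptprn, a phosphatase-like protein of the granule membrane, read 3.92 to 6.47 at 100 nM with a median of 5.86, against 2.66 to 2.98 in controls with a median of 2.89. It read 4.86, 5.17 and 4.80 at 10 nM. Every kept array with Insl3 lay above every control, a separation found for 4.51% of all genes at 100 nM and 10.2% at 10 nM. Ptprn rose by 2.88 ± 0.33 at 100 nM (SE, adjusted p = 0.000108, limma) and 2.10 ± 0.41 at 10 nM (adjusted p = 0.00453), or 7.34-fold and 4.27-fold. Both Ptprn calls held whichever of the 15 arrays was omitted. The other 3 tested granule genes, Cadps, Cadps2 and Ica1, named after their values were seen, were above 2.28 in all 15 arrays and were not called.

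Of 12 tested peptidase genes 4 rose at 100 nM (Mme, Anpep, Ece1 and Ide) and none fell, with 8 not called, against 8.15% of all genes rising and 3.98% falling. At 10 nM Mme and Ece1 rose, where 5.54% of all genes rose. Mme, which encodes neprilysin, read 10.12 to 10.70 at 100 nM with a median of 10.54, against 8.75 to 9.38 in controls with a median of 9.10, and 10.34, 10.11 and 10.07 at 10 nM. Every kept array with Insl3 lay above every control, as for 4.51% of all genes at 100 nM and 10.2% at 10 nM. Mme rose by 1.38 ± 0.13 at 100 nM (SE, adjusted p = 2.07e-05, limma) and 1.08 ± 0.16 at 10 nM (adjusted p = 0.000949). Anpep, the aminopeptidase N gene, rose by 0.70 ± 0.12 at 100 nM (adjusted p = 0.00200) and was not called at 10 nM (0.42 ± 0.14, adjusted p = 0.0824). Ece1, the endothelin-converting enzyme gene, rose by 0.54 ± 0.11 and 0.71 ± 0.14 at 100 and 10 nM (adjusted p = 0.00943 and 0.00517, limma). Ide, the insulin-degrading enzyme gene, rose by 0.30 ± 0.08 at 100 nM (adjusted p = 0.0319, limma), and 7 of 15 single-array omissions ended that call, with adjusted p reaching 0.0701. Its 2 dimmer probe sets differed by -0.04 and -0.06 and were not called.

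Of 12 tested genes among 51 listed precursors of other peptides, none rose and 1, Tac3, fell, with 11 not called, at either dose. Among all genes 3.98% fell at 100 nM and 3.13% at 10 nM. Tac3, the neurokinin B precursor gene, read 5.22 to 5.99 at 100 nM with a median of 5.55, against 5.64 to 6.70 in controls with a median of 6.42, and 5.48, 5.50 and 5.47 at 10 nM. It fell by 0.73 ± 0.18 at 100 nM (SE; adjusted p = 0.0195, limma) and 0.82 ± 0.22 at 10 nM (adjusted p = 0.0271), and 6 of 15 single-array omissions ended the 10 nM call, with adjusted p reaching 0.0994. Of the opioid family, Pdyn and Pomc were below 2.28 in all 15 arrays, and Penk, the enkephalin precursor gene, singled out after its values were seen, was high but not called. It read 11.01 to 12.57 at 100 nM with a median of 12.08, against 10.91 to 11.91 in controls with a median of 11.02, a difference of 0.80 ± 0.25 (adjusted p = 0.0565, limma). The other members of the neuropeptide Y family, Pyy and Ppy, were below 2.28 in all 15 arrays. The plot of the called genes gives both doses side by side.

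**Figure D4:**
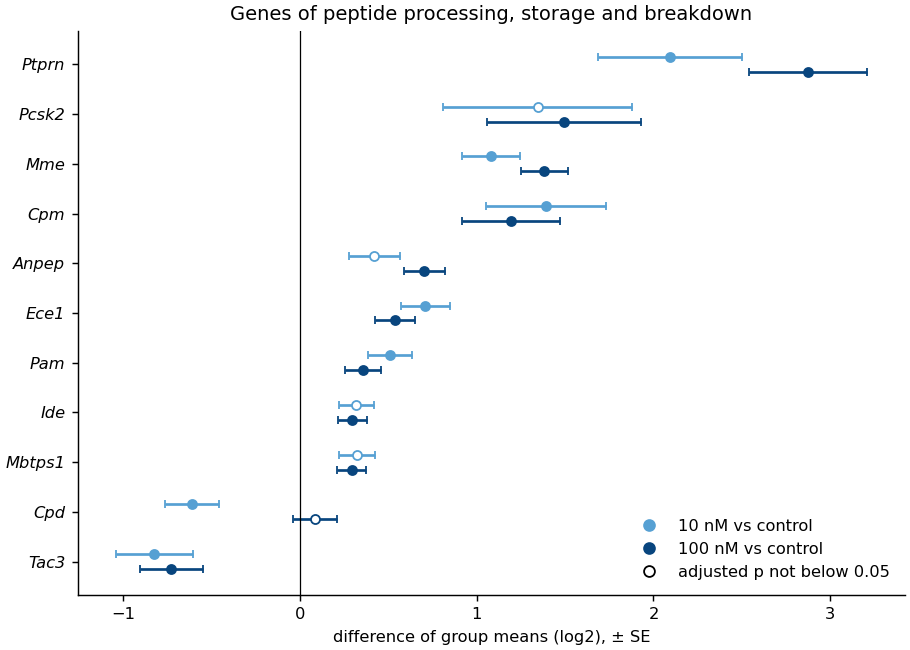
Differences from control (log2, ± SE) at 10 nM and 100 nM for the 11 listed genes called in any comparison. Filled points passed the adjusted p threshold of 0.05, and Ptprn, Mme, Cpm, Ece1 and Pam are filled at both doses to the right of 0, while Tac3 is filled at both doses to the left. Pcsk2 passed the filter on low signals only through arrays with Insl3, so its direction was fixed in advance.

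Of 8 sympathetic and chromaffin markers with a named probe set, 6 were below 2.28 in all 15 arrays, among them the noradrenaline enzyme genes Th and Dbh. The mean of the 2 measured ones, Slc18a2 and Ddc, ranged from 5.42 to 6.62 over the 100 nM arrays and from 5.38 to 5.96 over controls. Of 13 neuron markers 9 were tested and 1 rose at 100 nM, Uchl1 (0.72 ± 0.14, adjusted p = 0.00479, limma), while Tubb3, Elavl3, Syp and Syt1 were below 2.28 in all arrays. In controls Stmn2, Nefl, Gap43 and Nefm averaged 11.45, 9.42, 9.07 and 8.51, and Prph, Elavl4, Rbfox3 and Snap25 averaged 3.68, 2.91, 2.75 and 2.11. None of these tested markers was called at either dose. The neuron mean ranged from 6.35 to 6.77 at 100 nM and from 6.30 to 6.80 in controls. Of 4 tested Schwann cell markers 2 rose (Ngfr and Pmp22) and 1 fell (Mbp) at 100 nM, with a mean of 7.60 to 8.53 against 7.43 to 7.77 in controls. Sox10, Erbb3 and Fabp7, of the same list, did not pass the filter on low signals. Of 8 tested erythroid markers 6 fell at 100 nM, with a mean of 4.12 to 6.40 against 6.06 to 8.49 in controls, and 4 of 9 leukocyte markers fell, with a mean of 9.17 to 9.86 against 9.73 to 10.05. Of 5 tested endothelial markers 2 rose, Kdr and Cldn5, with a mean of 6.87 to 7.55 against 6.34 to 6.61. Emcn, Pecam1 and Tie1 differed by -0.42, 0.01 and 0.08 at 100 nM and were not called. Tek and Flt1 were below 2.28 in all 15 arrays. All 11 gubernaculum mesenchyme markers with a named probe set and all 9 of skeletal muscle were measured. The mesenchyme mean was 10.71 to 11.35 at 100 nM against 10.53 to 10.74 in controls, with 2 rising and 1 falling, and the muscle mean was 11.81 to 12.51 against 12.13 to 12.34, with 1 falling. These marker counts stand beside 8.15% of all genes rising and 3.98% falling at 100 nM. The Insl3 receptor gene Rxfp2 and the convertase gene Pcsk1 were not analysed here. The part of changes in cell makeup in the signals of Pnoc, Npy and Cpe was not tested.

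The genes whose pattern over the 15 arrays was most like each member were found by Pearson's r, given without a p because the arrays share the 3 groups and group differences enter r. For Pnoc these were Hacd3 (r = 0.97), a fatty acid elongation enzyme gene, the zinc transporter gene Slc39a6 (0.97), the oxygen-sensing prolyl hydroxylase gene Egln3 (0.97), the artemin co-receptor gene Gfra3 (0.96) and the receptor partner gene Ramp3 (0.96). Their steps were smaller than that of Pnoc, as with Ramp3 at 6.20, 8.04 and 8.07 in control, 10 nM and 100 nM means. For Cpe they were the cell surface gene Mpzl1 (0.98), Wnt2 (0.98), Tmem132c (0.98), the guanine deaminase gene Gda (0.98) and the phosphodiesterase gene Pde10a (0.98). Tmem132c had a step close to that of Cpe, at 8.92, 10.43 and 10.57, and Gda, at 2.75, 7.59 and 8.78, had a larger one.

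For Npy the likeness was lower. Its 5 nearest genes also had lower means with Insl3, which a ranking by highest r over these arrays favours. They were Tiparp (r = 0.88), an ADP-ribosyltransferase gene, the carbonic anhydrase gene Car3 (0.87), the semaphorin gene Sema6d (0.86), RGD1309362 (0.84) and the amino acid transporter gene Slc43a2 (0.84). Car3 came nearest in size, with means of 11.11, 10.69 and 9.87 in control, 10 nM and 100 nM arrays and a wide SD of 0.83 at 100 nM. Tiparp had means of 8.91, 8.51 and 8.14 with narrower SDs of 0.07, 0.24 and 0.16. The plot of group means sets each member beside its 5 nearest genes.

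**Figure D5:**
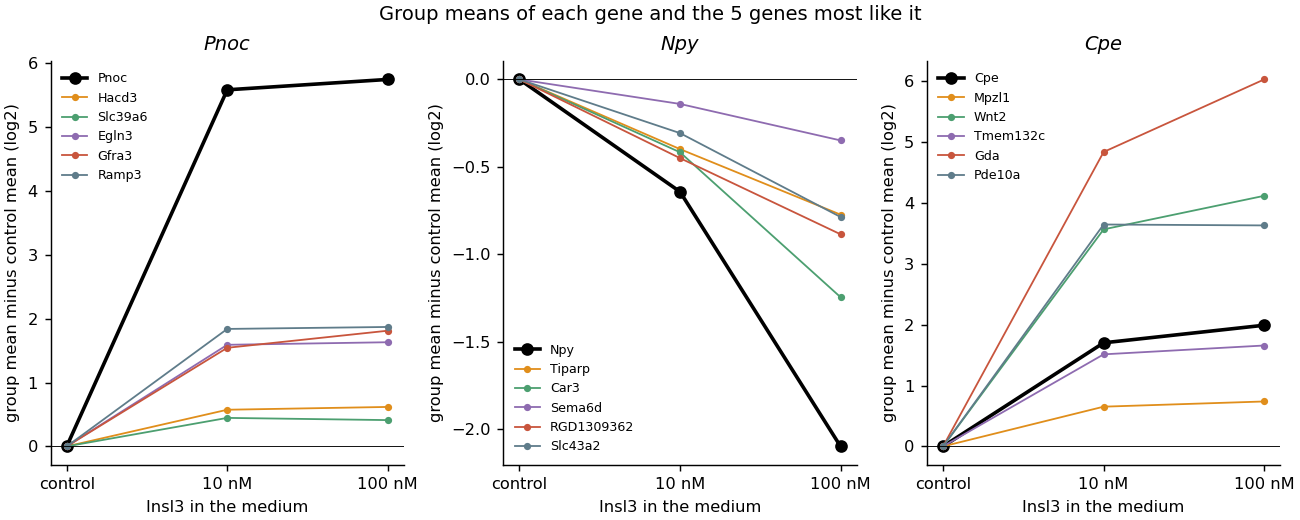
Group means minus the control mean (log2) for each member (black) and the 5 genes with the highest Pearson's r to it over 15 arrays (coloured), by Insl3 in the medium. Pnoc and Cpe and their nearest genes made most of their step by 10 nM, and Npy and its nearest genes were lowest at 100 nM. The coloured genes were picked for this likeness, so a shared course is not a separate result.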

How the data were processed

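Signals of 17 rat expression arrays were used as deposited. Per the submitters' processing notes the authors made the log2 values with GCRMA, which corrects background by probe sequence, normalizes between arrays and summarises probes into probe sets. The GCRMA version was not stated, and base 2 is inferred from the range of 2.11 to 16.9. Whether replicates 4 and 5 at 10 nM were normalized together with the others is unknown.

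Of 31099 probe sets, 57 are manufacturer controls and 20832 carry 1 gene. Probe sets above the 40th percentile of all values (2.28) in at least 3 of 15 arrays were tested (18938, covering 10665 genes, each by its probe set with the highest mean). The 3 groups were fitted together with limma 3.58.1 in R 4.3.3 (lmFit, eBayes, Benjamini-Hochberg over all 18938, threshold 0.05) after a test on simulated data. A fold against a group below 2.28 in every array is a bound that uses 2.28 there. Genes named are the 3 members, listed peptide genes called or fixed by name, and the 5 genes most like each member. Members and lists were chosen with earlier results of these data known. Alternatives were the replicate block, all 17 arrays, quantile normalization, 2 other filters, trend with robust fitting, medians, leaving out 1 array and, chosen after seeing the data, the division of replicates. The deviations of same-numbered arrays had r from 0.007 to 0.20 between control and 100 nM. In pairs with a 10 nM array r ranged from -0.07 to 0.19. The leading component divided the replicate numbers alike in all 3 groups. Numbers were not used as pairs in the main fit, and the replicate block is given as an alternative.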

Additional observations from a re-analysis of the deposited data

Results flagged for a closer look

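Among 28 groups of 6 arrays examined (the members and the called peptide genes, in control and 100 nM cultures), 3 had an array far from its group, and chance flags about 1 group in 20. Pam read 9.64 in 100 nM replicate 5, above the other arrays at 100 nM. Ptprn read 3.92 in the same array, below the other arrays at 100 nM, and Pcsk2 read 2.12 in control replicate 5, a value at background.

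The set-aside 10 nM arrays lie outside the comparisons and were above the highest control (9.84) for Pnoc, at 12.65 in replicate 4 and 13.35 in replicate 5. Cpe in replicate 5 was 11.40, level with the highest control to 2 decimals.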

How the results depend on the processing

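The signs of the 9 differences of Pnoc, Npy and Cpe did not turn under any alternative run. For Pnoc and Cpe against control, and for Npy at 100 nM against control, the groups did not overlap. Leaving out arrays could therefore not turn those signs. Npy at 10 nM was -0.64, and was -1.004 with all 17 arrays and -1.03 in replicates 1, 2 and 6 alone. With all 17 arrays Cpe at 10 nM was 0.999 and its 100 nM minus 10 nM difference was 0.99. The count of listed genes called at 100 nM, 10, was 5 with a replicate block, 2 with all 17 arrays, 6 with no filter, 3 in replicates 1, 2 and 6 alone, 5 in replicates 3, 4 and 5 alone, and 6 to 11 leaving out 1 array, with 6 without control replicate 4 or 5 or 100 nM replicate 4 or 6. It was 10 with quantile normalization, 11 with trend and robust fitting (22.4% against 11.2% of all probe sets) and 12 with the division as a term (24.5% against 13.0%). With a stricter filter it was 10 of 33 (30.3% against 13.1%). Without control replicate 4 or 5 or 100 nM replicate 4 or 6 the share was 12.2%, against 7.61% to 8.17% of all probe sets. Without control replicate 6 the count was 11, or 22.4% against 13.8%. The share of the listed genes called at 100 nM was 20.4% against 10.9% of all probe sets, or 12.1% of all genes. For the alternatives only shares of probe sets are given. The share was 10.2% against 9.40% with the replicate block, 4.08% against 5.32% with all 17 arrays and 12.2% against 4.49% with no filter. It was 6.12% against 1.06% in replicates 1, 2 and 6 and 10.2% against 8.93% in replicates 3, 4 and 5. At 10 nM the count of 7 (14.3% against 10.6%) was 4 with all 17 arrays (8.16% against 10.4%), 3 in replicates 1, 2 and 6 alone (6.12% against 2.95%), and 3 to 9 leaving out 1 array. It was 4 without 10 nM replicate 2 (8.16% against 7.30%), 3 without 10 nM replicate 3 (6.12% against 5.39%) and 9 without control replicate 1 (18.4% against 9.85%). It was 9 with trend and robust fitting (18.4% against 10.7%), 8 with the division as a term (16.3% against 11.6%) and 7 of 33 with the stricter filter (21.2% against 12.8%). Between the doses the count of 1 was 0 by limma with all 17 arrays, with no filter and in replicates 1, 2 and 6 alone (7, 4 and 3 genes at an unadjusted p below 0.05), and 0 to 2 leaving out 1 array. The count of 2 came without 100 nM replicate 5, or 4.08% against 3.27% of all probe sets. Without the 2 arrays farthest from the median, r turned to -0.12 for Pnoc and Npy in controls and to 0.13 for Npy and Cpe at 100 nM. The cause was not tested. Of the single-gene calls, the replicate block ended those of Pcsk2, Mbtps1, Pam, Tac3 and Ide at 100 nM and of Tac3 at 10 nM. Signals near 2.11 carry no order, which limits Pcsk2 and Npy5r.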

Other observations

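The set-aside 10 nM arrays, replicates 4 and 5, were above all controls for some genes and in or below the control range for others. Ptprn read 4.53 and 5.95 there, against 2.98 in the highest control, and Wnt2 read 5.36 and 6.02, against 2.25 in the highest control. Cpm read 4.36 and 4.53, against 4.38 to 6.04 in controls and 6.59 to 7.06 in the kept 10 nM arrays. Anpep read 9.01 and 9.19, below the lowest control at 9.63, and Mbtps1 (10.47 and 10.40, lowest control 10.56) and Ide (10.41 and 10.08, lowest control 10.46) were likewise below all controls. Ece1 read 7.73, inside the control range of 7.53 to 8.25, and 7.43, below it. Mme read 9.19 and 10.01, against 9.38 in the highest control. The skeletal muscle marker mean was 11.42 and 11.79 in these arrays, against 12.13 to 12.34 in controls, and the erythroid mean was 7.73 and 9.12, against 6.06 to 8.49.

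The galanin precursor gene Gal and the relaxin gene Rln1, named after their values were seen, had wider ranges at 100 nM than in controls. Gal read 4.79 to 9.41 at 100 nM against 6.93 to 8.46 in controls (adjusted p = 0.533, limma), and Rln1 read 5.95 to 8.87 against 7.11 to 8.16 (adjusted p = 0.431, limma).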
